A study of Rattus norvegicus with 6 samples.

Results

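The 40 genes described here encode the machinery that copies DNA in S phase and the machinery that divides the chromosomes in mitosis. They were chosen by name, by a rule that uses no measured value of these libraries, though with earlier results of these data known. Of the 40 genes, 39 were among the 17321 genes counted in the files, 16 of S phase and 23 of mitosis. The expression of Cenpe, a kinetochore motor, is not analysed here. All 39 passed the filter on low counts, through which 12276 genes were tested. The islets came from Sprague Dawley rat fetuses at gestational day 22. In each dam the fetuses of the left uterine horn had received 4 mg/min glucose for 48 h from gestational day 20 (high glucose), and the right horn held the paired control fetuses. In both groups the islets of 2 pooled pancreata made 1 library, after collagenase digestion, picking by hand and 24 h of recovery in RPMI medium with 5 mM glucose. There were 3 dams, and so 3 control and 3 high glucose libraries, with 18077841 to 30993532 counted read pairs each.

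The design leaves limits on every difference below. The horn side went with the treatment in all 3 dams, so side and glucose cannot be told apart. The horn letter in the name of the deposited file was the opposite of the one in the sample title in 6 of 6 libraries. The treatment labels were used, and under the other naming each direction below would be reversed. The RNA was taken after 24 h at 5 mM glucose and is that of the whole picked islets. Beta cell markers had counts in all 6 libraries, with summed levels of 4945 to 22859 CPM (counts scaled to a common library size, after TMM) over 9 genes. Mesenchyme markers summed to 20993 to 45115 CPM over 13 genes, of which Col1a2 had at most 12 counts in a library. In such bulk libraries fewer cells in cycle and less of a transcript per cycling cell cannot be told apart, nor can the type of cell that was cycling.

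As background, a cell commits to division when E2F transcription factors, released by cyclin-dependent kinases, switch on the genes for DNA precursors, origin licensing and the replication fork. The genes of mitosis follow later in the cycle. They are driven by the MuvB complex with the factors Mybl2 and Foxm1 through promoter elements called CHR (cell cycle genes homology region), often beside CCAAT boxes bound by NF-Y. The endocrine pancreas grows around birth by formation of new endocrine cells and by division of existing ones, and glucose is a known mitogen of beta cells.

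The promoters of the 2 classes differed in which of the searched motifs matched. RefSeq windows of the GRCr8 assembly, 250 bases before to 50 after the annotated start, matched 30 of the 40 genes, 29 of those counted and Cenpe, which is 1 of the 19 mitosis windows. They were searched on both strands for the CHR element TTTGAA, the CCAAT box CCAAT and the E2F sites TTTGGCGC, TTTCCCGC, TTTCGCGC and TTTGCCGC. Matches may overlap. A CHR element was found in 12 of 19 windows of mitosis genes (63.2%) and 1 of 11 windows of S phase genes (9.09%), against 18.4% of all 33469 windows. An E2F site was found in 7 of 11 S phase windows (63.6%) and 1 of 19 mitosis windows (5.26%), against 2.14% of all windows. CCAAT boxes were in 7 of 11 and 15 of 19 windows, against 37.5% of all. A CHR element and a CCAAT box stood in the same window in 11 of 19 mitosis genes, 0 of 11 S phase genes and 7.41% of all windows. A match is a run of letters and no proof of binding. Only these exact words were searched, so a window without a match may still hold a site that differs by a letter. The shares are therefore those of the words and not of all sites.

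**Figure D1:**
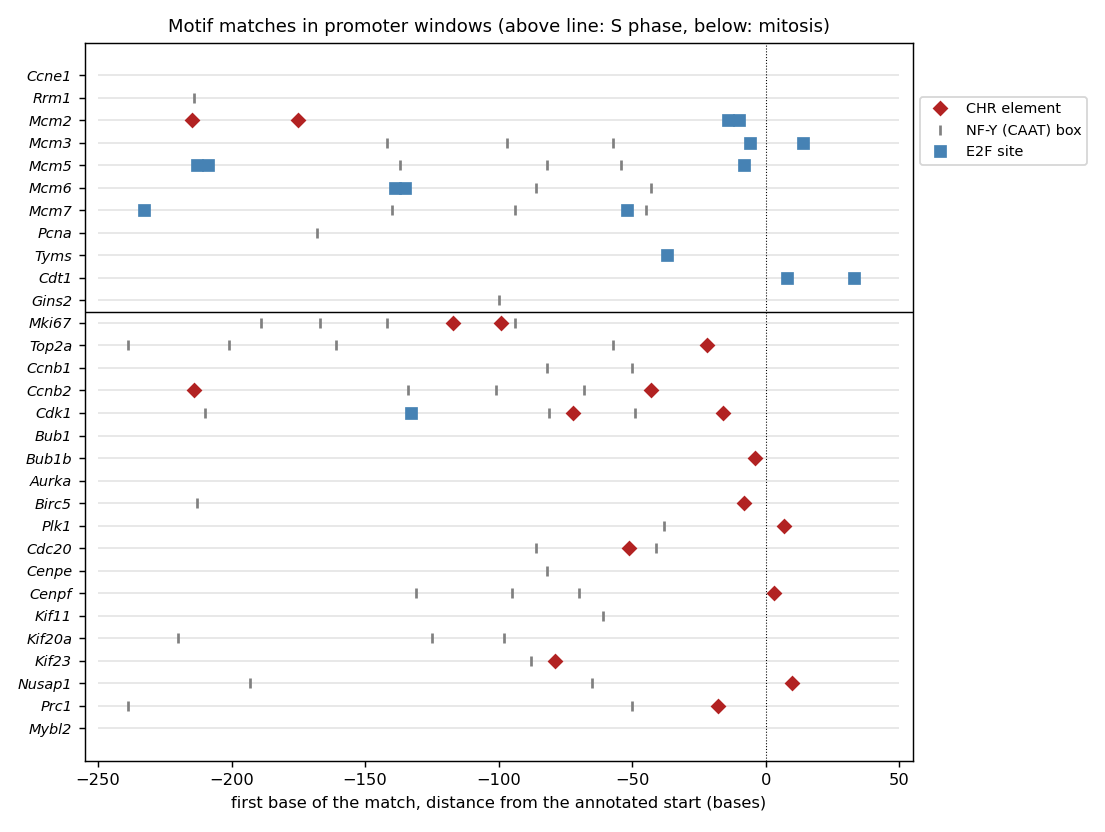
Each line is the RefSeq promoter window of 1 gene, from 250 bases before to 50 bases after the annotated start (horizontal axis, in bases), and each mark is the first base of a motif match on either strand. E2F sites (blue squares) lie mostly above the black line, in 7 of 11 S phase genes, and CHR elements (red diamonds) mostly below it, in 12 of 19 mitosis genes, with CCAAT boxes (grey bars) in both.

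The 250 bases before the start are printed for 4 S phase genes and 5 mitosis genes, to show both kinds of promoter. Capitals mark the motif matches named above, on either strand. Kif23 was added after its values were seen, as the member with the smallest p.
Mcm2, chr4:122918095-122918344, minus strand: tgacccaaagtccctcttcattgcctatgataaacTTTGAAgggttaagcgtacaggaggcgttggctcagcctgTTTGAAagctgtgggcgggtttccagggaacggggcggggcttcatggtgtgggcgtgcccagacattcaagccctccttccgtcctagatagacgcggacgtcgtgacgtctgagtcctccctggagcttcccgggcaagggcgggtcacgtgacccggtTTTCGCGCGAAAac
Mcm5, chr19:13488563-13488812, plus strand: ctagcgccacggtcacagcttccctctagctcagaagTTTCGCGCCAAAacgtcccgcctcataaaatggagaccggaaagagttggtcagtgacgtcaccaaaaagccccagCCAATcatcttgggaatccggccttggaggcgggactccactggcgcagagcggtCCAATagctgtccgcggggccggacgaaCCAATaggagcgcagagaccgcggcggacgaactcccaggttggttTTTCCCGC
Pcna, chr3:139955821-139956070, minus strand: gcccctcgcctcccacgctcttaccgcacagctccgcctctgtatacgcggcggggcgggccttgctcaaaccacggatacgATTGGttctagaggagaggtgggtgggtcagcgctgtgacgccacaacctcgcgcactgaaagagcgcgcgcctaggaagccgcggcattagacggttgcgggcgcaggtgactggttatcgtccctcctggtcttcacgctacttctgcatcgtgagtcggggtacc
Tyms, chr9:120776084-120776333, minus strand: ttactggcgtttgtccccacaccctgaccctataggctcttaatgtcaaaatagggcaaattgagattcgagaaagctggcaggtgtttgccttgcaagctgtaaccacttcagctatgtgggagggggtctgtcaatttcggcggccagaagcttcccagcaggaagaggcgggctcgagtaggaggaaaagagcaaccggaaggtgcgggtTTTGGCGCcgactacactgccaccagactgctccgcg
Mki67, chr1:199952594-199952843, minus strand: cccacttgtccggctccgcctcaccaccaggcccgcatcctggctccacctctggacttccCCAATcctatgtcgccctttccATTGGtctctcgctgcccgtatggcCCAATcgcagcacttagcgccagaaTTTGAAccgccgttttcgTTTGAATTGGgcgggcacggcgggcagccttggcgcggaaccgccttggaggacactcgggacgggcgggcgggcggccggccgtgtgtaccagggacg
Top2a, chr10:84473094-84473343, minus strand: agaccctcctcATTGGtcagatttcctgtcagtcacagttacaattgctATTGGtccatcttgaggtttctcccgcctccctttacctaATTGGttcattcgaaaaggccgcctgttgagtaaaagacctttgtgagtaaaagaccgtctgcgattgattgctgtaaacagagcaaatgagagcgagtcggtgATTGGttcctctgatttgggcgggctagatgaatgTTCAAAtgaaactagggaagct
Ccnb1, chr2:33655226-33655475, minus strand: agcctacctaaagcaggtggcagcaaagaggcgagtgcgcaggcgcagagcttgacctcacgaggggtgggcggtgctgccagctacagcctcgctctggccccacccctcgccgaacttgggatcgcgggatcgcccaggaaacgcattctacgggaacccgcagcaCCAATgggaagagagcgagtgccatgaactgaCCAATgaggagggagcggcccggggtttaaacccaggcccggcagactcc
Cdk1, chr20:19265043-19265292, plus strand: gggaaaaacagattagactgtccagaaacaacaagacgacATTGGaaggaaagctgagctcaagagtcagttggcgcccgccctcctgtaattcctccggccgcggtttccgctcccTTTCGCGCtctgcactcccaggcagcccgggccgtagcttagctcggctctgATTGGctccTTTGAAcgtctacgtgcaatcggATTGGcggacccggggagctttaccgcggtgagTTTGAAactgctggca
Kif23, chr8:71320585-71320834, minus strand: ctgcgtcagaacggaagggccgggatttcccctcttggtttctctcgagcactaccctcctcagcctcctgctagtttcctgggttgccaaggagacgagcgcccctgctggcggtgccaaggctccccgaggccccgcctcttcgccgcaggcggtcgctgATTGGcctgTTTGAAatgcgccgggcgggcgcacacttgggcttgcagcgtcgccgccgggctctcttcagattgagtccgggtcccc

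In the Mcm2 window a pair of overlapping E2F sites on opposite strands started 14 and 10 bases before the start, and 2 CHR matches lay farther out, at 215 and 175 bases. Mcm5 had an E2F site at 8 bases and an overlapping pair at 213 and 209 bases. Tyms had 1 E2F site at 37 bases. In the Pcna window only a CCAAT box was found. Mki67 had 2 CHR matches, at 117 and 99 bases, the nearer of which ran into a CCAAT box on the opposite strand. Cdk1, the kinase that starts mitosis, held all 3 kinds of motif, with CHR matches at 72 and 16 bases and an E2F site at 133 bases. Ccnb1 had 2 CCAAT boxes and no CHR match by these letters. In Kif23 a CHR match at 79 bases followed a CCAAT box on the opposite strand at 88 bases, the same pairing as in Cdk1 (72 and 81 bases). The other printed genes are the first of the fixed list with a match before the start. Ccne1 has a window with no match, and the matches of Cdt1 lay after the start.

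No member passed the test between high glucose and control. In edgeR's quasi-likelihood test with the dam as a block, 0 of 39 members had an adjusted p below 0.05, against 2 of all 12276 genes (0.0163%), and neither of those 2 is a member. The smallest adjusted p of a member was 0.993, and DESeq2 called 0 of 39 as well, against 0.863% of all genes. At an unadjusted p below 0.05 there were 2 members, Cenpf and Kif23, both higher in high glucose, where 4.82% of all genes reached that level and 1.67% did so with a higher value in high glucose. The groups overlapped in all 39 members. Among all genes, 1.21% lay wholly higher and 2.1% wholly lower in high glucose. The 95% interval of a member's log2 difference reached a median of 0.424 to each side, so modest differences could not be shown with 3 pairs.

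The medians of the 2 classes lay on different sides of 0. All 23 mitosis genes had a fitted log2 difference above 0, from 0.048 (Aurka) to 0.66 (Cenpf), with a median of 0.26. Of the 16 S phase genes 5 were above and 11 below 0, from -0.29 (Cdc6) to 0.20 (Ccne1), with a median of -0.078. Over all 12276 genes the median was 0.0041, and 50.7% lay above 0. In pairs 1 to 3 the median of the within-pair log2 differences was 0.23, 0.12 and 0.32 for mitosis genes and -0.23, 0.17 and -0.21 for S phase genes, so the S phase median changed sign between pairs. The classes stood farthest apart in pairs 1 and 3 and lay together in pair 2. Genes of 1 programme vary together within a library, so these counts are not evidence from separate genes.

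**Figure D2:**
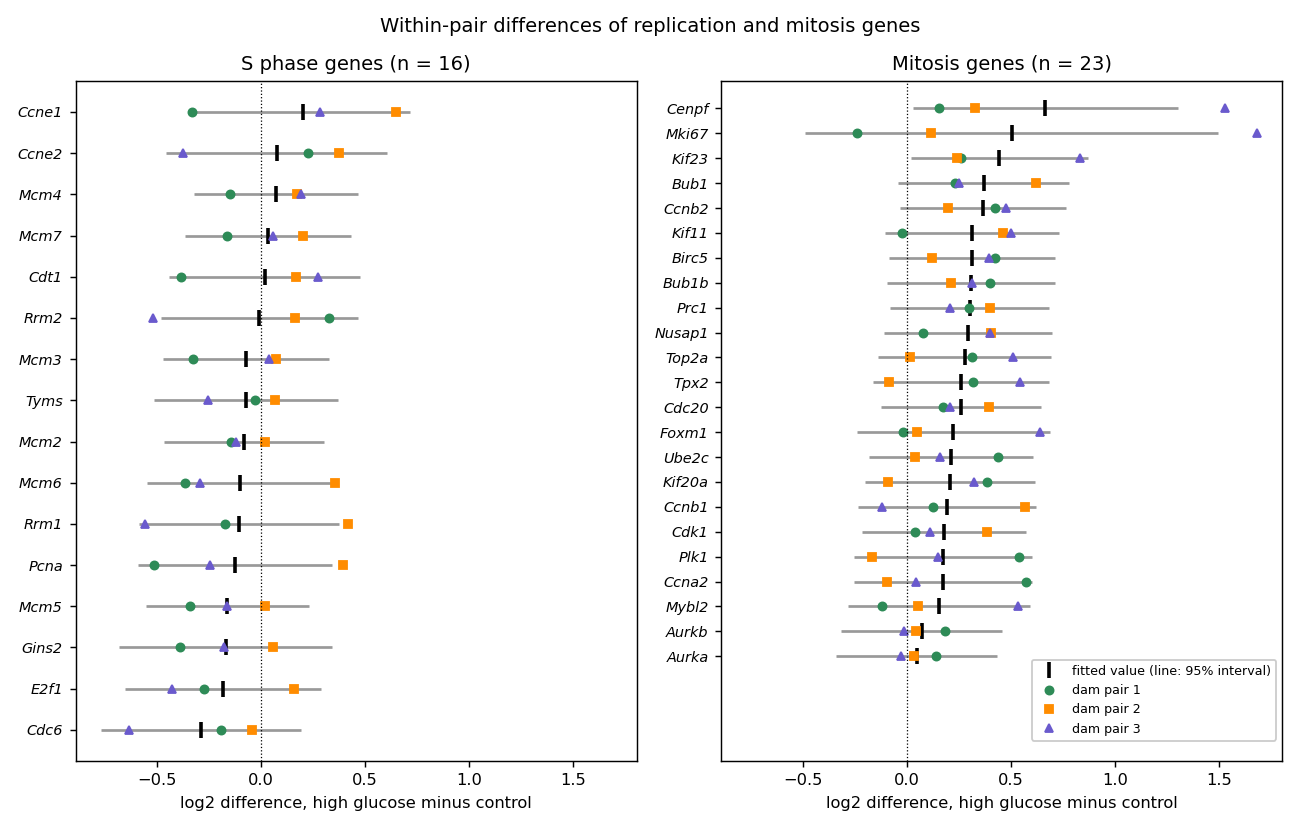
Log2 difference of high glucose minus control (horizontal axis) for each of the 16 S phase genes (left) and 23 mitosis genes (right), ordered by the fitted value. Black ticks are fitted values, grey lines their 95% intervals and coloured symbols the 3 dam pairs. Every mitosis gene has a fitted value above 0, between 0.048 and 0.66, while the S phase genes lie between -0.29 and 0.20, and the pair 3 values of Cenpf and Mki67 stand apart at 1.53 and 1.68.

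The levels of single genes are given below in the order of pairs 1, 2 and 3, as CPM, and each log2 difference is high glucose minus control. The adjusted p of edgeR's quasi-likelihood test over all genes was 0.993 for Kif23 and Cenpf and higher for every other member. The regulators of S phase entry come first. E2f1 (chromosome 3, 150062895 to 150073721, rn6, as are all gene positions below), the factor that switches on S phase genes, measured 25.4, 32.2 and 26.6 CPM in control islets and 21.0, 35.9 and 19.7 CPM after high glucose. Its highest library was the high glucose one of pair 2 and its lowest that of pair 3, and the fitted log2 difference was -0.18 (SE 0.213). Ccne1 (chromosome 1, 94485830 to 94495067), a cyclin that activates Cdk2 at the start of S phase, measured 30.0, 39.2 and 20.9 CPM in control islets and 23.9, 61.5 and 25.4 CPM after high glucose. It had the highest fitted value of the S phase genes, 0.20 (SE 0.232), but was lower in high glucose in pair 1. The related cyclin Ccne2 measured 21.5, 11.3 and 15.9 CPM in control islets and 25.2, 14.7 and 12.3 CPM after high glucose. Ccne2 was the only member with its lowest mean in dam 2, and its fitted difference was 0.075.

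Origin licensing loads the Mcm2 to Mcm7 helicase ring on DNA with the help of Cdc6 and Cdt1. Cdc6 (chromosome 10, 86819929 to 86833301) measured 25.6, 32.8 and 20.9 CPM in control islets and 22.4, 31.8 and 13.5 CPM after high glucose, with means of 26.4 ± 5.98 and 22.6 ± 9.17 CPM (SD, n = 3 each). It was the only member lower in high glucose in all 3 pairs, with log2 differences of -0.19, -0.044 and -0.63 and a fitted value of -0.29 (SE 0.216, 95% interval -0.77 to 0.19). Among all genes, 11.3% were lower in all 3 pairs. Cdt1 measured 38.7, 56.8 and 25.5 CPM in control islets and 29.6, 63.8 and 30.8 CPM after high glucose, with a fitted difference of 0.019 that turned to -0.0039 under upper-quartile scaling. Of the 6 helicase genes, Mcm2 (chromosome 4, 120825699 to 120840111) measured 159.8, 202 and 111 CPM in control islets and 145, 204 and 102 CPM after high glucose. Mcm5 (chromosome 19, 14523570 to 14560830) measured 119.7, 159 and 67.9 CPM in control islets and 94.5, 161 and 60.7 CPM after high glucose. Both differed far more between dams than within any pair, and their fitted differences were -0.082 and -0.16. Mcm3 and Mcm6 were also below 0 (-0.072 and -0.10), and Mcm4 and Mcm7 above it (0.072 and 0.033). Over the 6 libraries Mcm3 ranged from 74.9 to 140.4, Mcm4 from 82.5 to 167, Mcm6 from 97.4 to 244 and Mcm7 from 129 to 247 CPM. In all 4 the libraries of dam 3 were the lowest on average. Gins2, a subunit of the complex that activates the helicase, ranged from 9.53 to 23.2 CPM and had a fitted difference of -0.17.

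At the fork, Pcna (chromosome 3, 124880698 to 124884570), the sliding clamp of the DNA polymerases, measured 197, 153 and 148 CPM in control islets and 138, 201 and 124.4 CPM after high glucose. Its log2 differences were -0.51, 0.39 and -0.25, so pair 2 went against pairs 1 and 3, and the fitted value was -0.12 (SE 0.211). The enzymes of nucleotide supply were likewise higher in high glucose in pair 2 and lower in pair 3, with fitted values below 0. In pair 1 Rrm2 was higher and the others lower. Rrm2 (chromosome 6, 43884627 to 43890818), the subunit of ribonucleotide reductase made in S phase, measured 54.5, 48.1 and 39.0 CPM in control islets and 68.3, 54.0 and 27.2 CPM after high glucose. It was higher in high glucose in pairs 1 and 2 and lower in pair 3, with a fitted value of -0.0076 that was 1.7e-05 with RLE scaling. Rrm1, the large subunit, ranged from 138 to 295 CPM over the 6 libraries and had log2 differences of -0.17, 0.42 and -0.56. Its fitted value was -0.10. Tyms, which makes thymidylate, measured 39.0, 32.7 and 23.8 CPM in control islets and 38.2, 34.2 and 19.9 CPM after high glucose, with a fitted value of -0.073. In 15 of 16 S phase genes the value of pair 2 was above 0, in 2 of 16 that of pair 1 and in 5 of 16 that of pair 3. The shares of all genes above 0 were 50.1%, 52.2% and 48.7% in pairs 1 to 3.

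**Figure D3:**
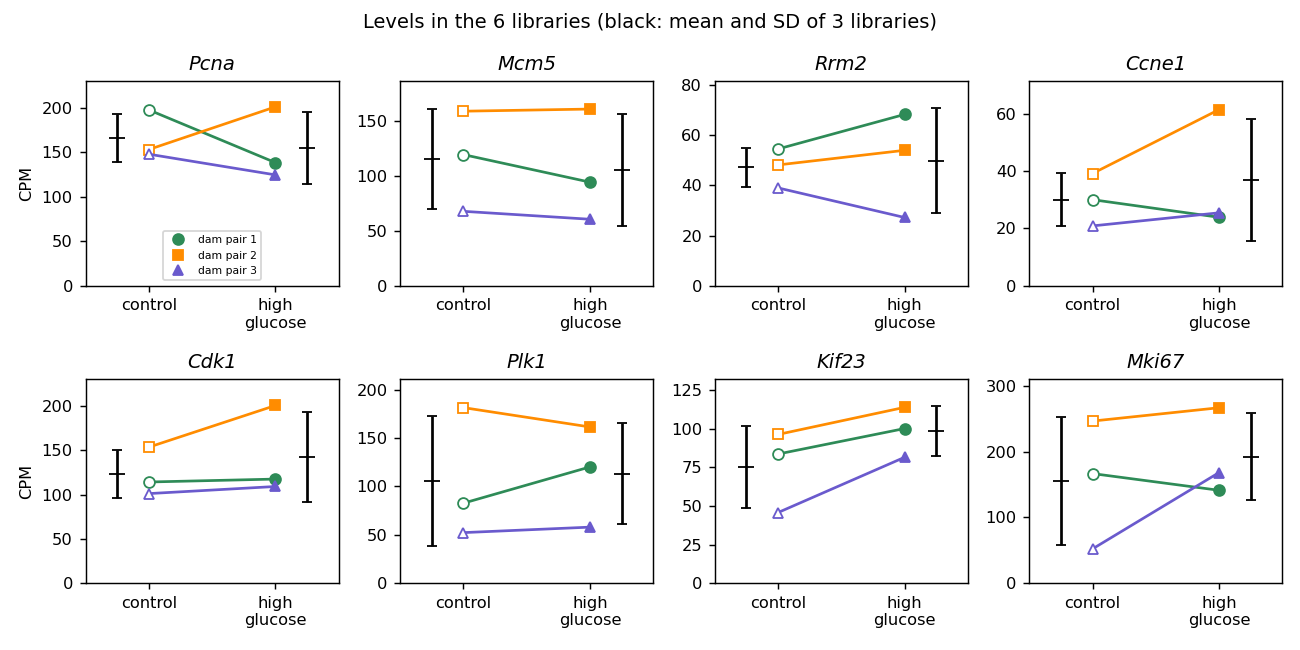
CPM (vertical axes from 0) of 4 S phase genes (top) and 4 mitosis genes (bottom) in the control (open) and high glucose (filled) library of each dam pair, with the mean and SD of 3 libraries in black. Lines of Kif23 and Cdk1 run upward in all 3 pairs, those of Pcna and Rrm2 run both ways, and the control library of pair 3 holds the lowest Mki67 value, 52.4 CPM.

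Among the mitosis genes, the cyclins and the kinase they drive were higher in high glucose in most pairs. Cdk1 (chromosome 20, 20576377 to 20591509) measured 114, 154 and 101 CPM in control islets and 118, 201 and 109 CPM after high glucose, with means of 123.1 ± 27.3 and 143 ± 50.5 CPM (SD, n = 3 each). It was higher in all 3 pairs (log2 0.041, 0.38 and 0.11), and its fitted value was 0.18 (SE 0.177, 95% interval -0.21 to 0.57). Ccnb1 (chromosome 2, 30782133 to 30791106), the cyclin that brings Cdk1 into mitosis, measured 89.3, 96.0 and 70.5 CPM in control islets and 97.5, 142 and 65.0 CPM after high glucose. Most of its fitted difference of 0.19 came from pair 2, and pair 3 was below 0. Ccna2, which serves in S phase and before mitosis, measured 96.0, 164 and 61.1 CPM in control islets and 143, 154 and 63.0 CPM after high glucose. Here pair 1 stood out, with a log2 difference of 0.57 beside -0.097 and 0.044. Ccnb2 measured 44.1, 81.1 and 34.4 CPM in control islets and 59.2, 93.0 and 47.9 CPM after high glucose, higher in all 3 pairs. Its row is uncertain, since the files place Ccnb2 on a single interval of 1491 bases on chromosome 1 of rn6, while RefSeq places the gene on chromosome 8 of GRCr8. It was the only member counted on 1 interval, and the other 28 members with a RefSeq window lay on the same chromosome in both. Which locus its reads came from was not tested.

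The mitotic kinases Plk1, Aurka and Aurkb were higher in high glucose in 2 of 3 pairs each. Plk1 (chromosome 1, 192115993 to 192125969), needed for spindle poles and for exit from mitosis, measured 82.8, 181 and 52.4 CPM in control islets and 120.2, 161 and 58.1 CPM after high glucose. Pairs 1 and 3 were higher in high glucose and pair 2 lower, and the fitted value was 0.17 (SE 0.193). Aurka, the spindle pole kinase, measured 59.1, 112 and 40.96 CPM in control islets and 65.0, 115 and 40.1 CPM after high glucose. Aurkb, the kinase of the chromosomal passenger complex, measured 59.5, 113 and 50.7 CPM in control islets and 67.6, 116 and 50.3 CPM after high glucose. Aurka and Aurkb had the lowest fitted values of the mitosis genes, 0.048 and 0.071, and their pair 3 differences were -0.030 and -0.012. Birc5 (survivin), which sits in the same complex as Aurkb, measured 38.0, 113 and 32.9 CPM in control islets and 51.0, 122.8 and 43.3 CPM after high glucose. It was higher in all 3 pairs, with a fitted value of 0.31 (SE 0.180).

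The checkpoint members Bub1 and Bub1b, and Cdc20 and Ube2c of the ligase that the checkpoint restrains, had higher values in high glucose in each pair, and none of the 4 passed the test. Bub1 (chromosome 3, 120373604 to 120404910), a checkpoint kinase, measured 60.2, 49.7 and 48.9 CPM in control islets and 70.8, 76.5 and 58.3 CPM after high glucose, with means of 52.9 ± 6.30 and 68.5 ± 9.31 CPM (SD, n = 3 each). Only in Bub1 was the share of the variation between libraries that went with treatment (59.9%) above the share that went with the dam (26.1%). Its fitted value was 0.37 (SE 0.185, 95% interval -0.041 to 0.78). Bub1b, its partner in the checkpoint, measured 48.2, 53.4 and 33.6 CPM in control islets and 63.7, 61.8 and 41.8 CPM after high glucose, with a fitted value of 0.31. Cdc20, the activator of the anaphase-promoting complex, measured 92.7, 158 and 79.9 CPM in control islets and 105, 208 and 92.2 CPM after high glucose. Ube2c, the ubiquitin-conjugating enzyme of that complex, measured 67.7, 178 and 54.7 CPM in control islets and 91.7, 183 and 61.1 CPM after high glucose. Their fitted values were 0.26 and 0.21, and each was higher in all 3 pairs.

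Of the genes of the spindle and of cleavage, Kif23 had the smallest p. Kif23 (chromosome 8, 66866086 to 66893179), a kinesin of the central spindle, measured 83.6, 96.2 and 45.8 CPM in control islets and 100.1, 114 and 81.5 CPM after high glucose, with means of 75.2 ± 26.3 and 98.4 ± 16.2 CPM (SD, n = 3 each). It was higher in all 3 pairs (log2 0.26, 0.24 and 0.83), with a fitted value of 0.44 (SE 0.191, unadjusted p = 0.0422, adjusted p = 0.993 in edgeR's test). Without pair 3 the fitted value was 0.25. Prc1, which bundles microtubules beside Kif23, measured 122, 126.2 and 87.9 CPM in control islets and 149.8, 167 and 101 CPM after high glucose. Nusap1, a spindle-associated protein, measured 54.8, 66.8 and 42.2 CPM in control islets and 57.9, 88.5 and 55.7 CPM after high glucose. Both were higher in all 3 pairs, with fitted values of 0.30 and 0.30. The spindle motors Kif11 and Kif20a and the spindle assembly factor Tpx2 were higher in 2 of 3 pairs, with fitted values of 0.31, 0.21 and 0.26. The pair that was not higher was pair 1 for Kif11 (-0.024 on the log2 scale) and pair 2 for Kif20a (-0.090) and Tpx2 (-0.087). Their levels over the 6 libraries ranged from 46.9 to 99.9, 71.6 to 233 and 77.7 to 235 CPM.

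Top2a (chromosome 10, 86901467 to 86930949), the topoisomerase that untangles sister chromatids, measured 216, 312 and 110.2 CPM in control islets and 268, 315 and 157 CPM after high glucose. It was higher in all 3 pairs, by little in pair 2, with a fitted value of 0.28 (SE 0.187). Mki67 (chromosome 1, 207993895 to 208020454), the Ki-67 gene used as a marker of cycling cells, measured 167, 246 and 52.4 CPM in control islets and 141, 267 and 168 CPM after high glucose. The control library of pair 3 lay far below the others, so that the log2 differences were -0.24, 0.11 and 1.68. The fitted value of 0.50 (SE 0.398) was -0.060 without pair 3. Cenpf (chromosome 13, 108132499 to 108178609), a kinetochore protein, measured 72.0, 79.5 and 27.4 CPM in control islets and 80.2, 99.9 and 79.2 CPM after high glucose. Its control library of pair 3 was low in the same way, and its fitted value of 0.66 (unadjusted p = 0.0428, adjusted p = 0.993 in edgeR's test) was 0.24 without pair 3. The transcription factors of the programme were higher mainly in pair 3. Foxm1 measured 39.5, 50.3 and 21.2 CPM in control islets and 39.0, 52.0 and 33.0 CPM after high glucose, and Mybl2 measured 53.7, 79.5 and 29.5 CPM in control islets and 49.4, 82.5 and 42.8 CPM after high glucose. Their fitted values were 0.22 and 0.15, and without pair 3 they were 0.017 and -0.031.

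In all, 12 of 23 mitosis genes were higher in high glucose in all 3 pairs and 0 were lower in all 3. Of the S phase genes 0 of 16 were higher and 1 was lower. Over all genes 11.7% were higher and 11.3% lower in all 3 pairs. The number of mitosis genes above 0 was 19, 19 and 20 of 23 in pairs 1 to 3. These genes share their libraries, so the counts are not evidence from separate genes. Relative to each gene's mean over the 6 libraries, the S phase genes had a median log2 level of 0.15, 0.31 and -0.34 in control and -0.096, 0.45 and -0.43 in high glucose. For the mitosis genes it was -0.12, 0.52 and -0.78 in control and 0.053, 0.64 and -0.30 in high glucose. The S phase level minus the mitosis level was 0.27, -0.21 and 0.44 in control and -0.15, -0.18 and -0.12 in high glucose. It was positive in the control libraries of pairs 1 and 3 and negative in the other 4 libraries.

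Other genes of the same pathways, taken from textbook knowledge but listed with earlier results of these data known, were read in the same fit. Of 48 further mitosis genes 40 were counted and tested, and 0 passed, against 0.0163% of all genes. At an unadjusted p below 0.05 in edgeR's test there were 4, against 4.82% of all genes. Of the 40, 38 lay above 0 and 2 below, where 50.7% of all genes lay above 0. Their median was 0.24, with pair medians of 0.13, 0.22 and 0.27. They were higher in all 3 pairs in 19 of 40 cases and lower in 1, against 11.7% and 11.3% of all genes. The highest fitted values were those of Kif20b, a kinesin (0.69, edgeR adjusted p = 0.761), and Aspm, a spindle pole protein (0.56), and the lowest those of the phosphatase gene Cdc25b (-0.10) and the checkpoint gene Bub3 (-0.069). Of 42 further S phase genes 37 were counted and 36 tested, and 0 passed (0 at an unadjusted p below 0.05). They lay on both sides of 0 (19 above, 17 below), with a median of 0.0081 and pair medians of -0.26, 0.18 and 0.096. Mcm10 and Nasp had the highest values (0.28 and 0.26), and Rfc4 the lowest (-0.26). These lists share the 6 libraries with the members and are no separate experiment.

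**Figure D4:**
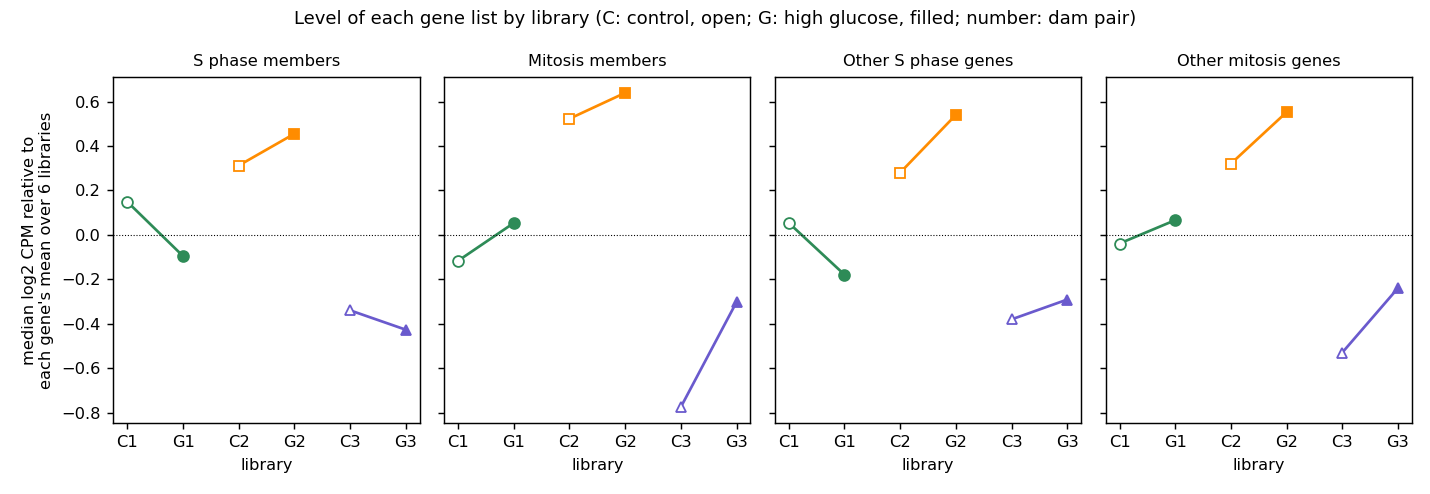
Median log2 CPM of each list relative to each gene's mean over the 6 libraries (vertical axis), in the control (open) and high glucose (filled) library of dam pairs 1 to 3. Dam 2 is highest and dam 3 lowest in every panel. The mitosis lists are higher in high glucose in all 3 pairs, while the S phase members go from 0.15 to -0.096 in pair 1 and from 0.31 to 0.45 in pair 2.

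Differences between dams were larger than those between treatments. The mean level of the 2 libraries of a dam was highest in dam 2, then dam 1, then dam 3 in 33 of 39 members (12 of 16 S phase and 21 of 23 mitosis genes), an order found in 14.5% of all genes. Dam 3 was lowest in 38 of 39. The median difference of dam 2 minus dam 3 was 0.83 for S phase and 1.10 for mitosis genes on the log2 scale. It was 1.64 for Ube2c, 1.64 for Birc5, 1.63 for Plk1, 1.32 for Mcm5, 0.37 for Pcna and 0.21 for Bub1. The dam took a median share of 88.4% of the variation between libraries in the members and 72.4% in all genes, and the treatment 3.73% and 4.66%. These shares are not adjusted for the dam having more levels than the treatment, which raises its share even without an effect. The test between dams, added after these levels were seen, called 20 of 39 members (8 S phase, 12 mitosis) in edgeR's fit, against 22.8% of all genes. Among these, the edgeR adjusted p was 0.00317 for Ube2c, 0.00299 for Birc5, 0.00537 for Plk1 and 0.00846 for Mcm5, and among those not called 0.178 for Mki67 and 0.449 for Pcna. Without pair 2 the test called 0 members and 1.74% of all genes. Without pair 1 it called 27 members and 17.9% of all genes, and without pair 3 it called 17 members and 31.5%. Each dam is 1 animal, so litter, handling and cell make-up cannot be told apart between dams.

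Markers of other cell types also differed between pairs and treatments. Beta cell markers summed to 11211, 13507 and 22859 CPM in control islets and 18664, 10786 and 4945 CPM after high glucose. Their median log2 differences were 0.91, 0.023 and -2.24, with 0 of 9 higher in pair 3, the pair with the largest median difference of the mitosis genes. Mesenchyme markers had pair medians of 0.43, -0.15 and -0.14, and 12 of 12 tested were higher in pair 1, 5 in pair 2 and 3 in pair 3. Acinar markers (11 genes, 9 of them tested) summed to 1053 and 1542 CPM in the libraries of pair 2, where the members were highest. In pair 1 they summed to 223 and 169 CPM, and in pair 3 to 42.7 and 763 CPM. The acinar regulator Ptf1a had at most 15 counts in a library, and 0 in the control library of pair 3. Between treatments, all 7 counted duct markers had a fitted difference above 0 (median 0.76), with summed levels of 1703 to 4185 CPM in control and 2412 to 6253 CPM in high glucose. All 9 leukocyte markers lay below 0 (median -0.70, 807 to 1038 against 379 to 734 CPM), as did all 8 endothelial markers (median -0.48, 782 to 947 against 345 to 776 CPM). Of 9 counted erythroid markers 6 were tested, all below 0 and 1 of them, Car1, among the 2 genes called by edgeR (median -3.44, 377.1 to 1465 against 84.7 to 598 CPM). The erythroid regulator Gata1 had 0 counts in all 6 libraries. The globin genes Hba1 and Hba2 had at most 3 and 4 counts in a library, beside 2636 to 44950 for the globin gene Hbb. The mesenchyme marker Col1a2 had 1 to 12 counts in a library, beside 223391 to 413770 for Col1a1. Whether reads of Gata1, Hba1, Hba2 and Col1a2 went uncounted was not tested. The part of these cells in the values of the replication and mitosis genes was not tested.

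In pair 3 the difference moved with the length of the transcript. Over all tested genes the median log2 difference in pair 3 was -0.27 for annotated exon lengths under 1000 bases and -0.13 for 1000 to 2000 bases. It was 0.049 for 2000 to 4000, 0.30 for 4000 to 8000 and 0.71 for at least 8000 bases, and 85.2% of the 203 genes in the last class were above 0. The part of transcript length in the members' values was not tested. In pairs 1 and 2 that last class had medians of 0.048 and 0.044. Mki67 and Cenpf have the longest exon lengths of the members, 9880 and 10064 bases. Measured against the median of their length class, their pair 3 values of 1.68 and 1.53 became 0.98 and 0.82. On the same measure the pair 3 value of Birc5 (878 bases) went from 0.39 to 0.66. Bub1 and Top2a, higher in all 3 pairs before, were then -0.047 in pair 3 and -0.026 in pair 2. The other mitosis genes that were higher in all 3 pairs stayed above 0 in each. For the whole lists the median fitted difference relative to the length class was 0.22 for mitosis genes, with 23 of 23 above 0, and -0.090 for S phase genes, with 4 of 16 above 0. The pair medians were 0.20, 0.099 and 0.27 and -0.24, 0.15 and -0.19.

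**Figure D5:**
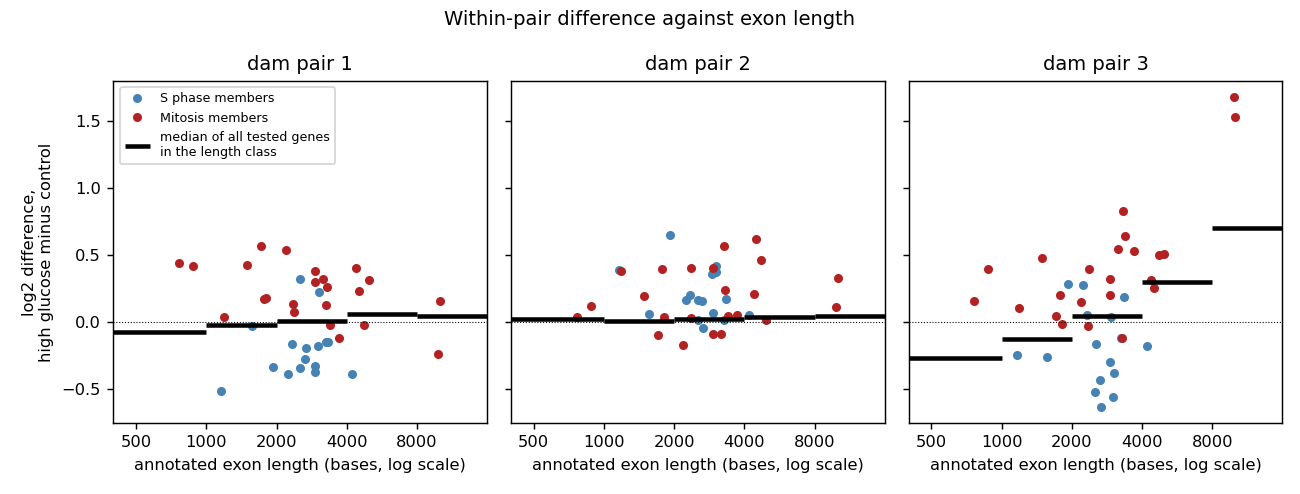
Log2 difference of high glucose minus control (vertical axis) against annotated exon length (bases, log scale) in dam pairs 1 to 3. Points are S phase (blue) and mitosis (red) members, and black bars the median of all tested genes in a length class, which climbs from -0.27 to 0.71 in pair 3 and stays between -0.074 and 0.060 in pair 1.

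Per unit of length the members covered a wide range of levels. In TPM, a share of all transcripts computed from the counts and the annotated exon lengths, the mean over 6 libraries was highest for Pcna (220.1 TPM), Ube2c (209 TPM) and Cdk1 (174 TPM). It was lowest for Cenpf (11.6 TPM), Ccne2 (9.14 TPM) and Gins2 (5.41 TPM). The range over libraries was 169 to 319 TPM for Pcna and 108 to 314 TPM for Ube2c, so those neighbours overlapped. Among the helicase genes, whose products form a ring with 1 copy of each, the mean level ran from 56.3 TPM for Mcm3 to 122.7 TPM for Mcm7. Mki67 stood at 27.4 TPM and E2f1 at 15.8 TPM. Together the 39 genes held 0.235% to 0.422% of the counts of a control library and 0.290% to 0.480% of a high glucose library. By pair these shares were 0.401, 0.422 and 0.235% in control and 0.389, 0.480 and 0.290% in high glucose. The share was lower in high glucose in pair 1 and higher in pairs 2 and 3.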

How the data were processed

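Each library has a deposited table of counts, which the authors made with featureCounts 1.5.1 per the file headers. Read pairs were assigned by strand (setting 2) to UCSC refGene exons of rn6, with mapping quality 10 or higher. The submitters' processing notes also name STAR 2.5, edgeR 3.12.1 and, beside rn6, mm10. The library kit was stranded and poly(A)-selecting per the labels' protocols.

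The test was edgeR 4.0.16 in R 4.3.3, with TMM scaling, filterByExpr and a robust quasi-likelihood F-test. The model held dam and treatment, and p was adjusted by Benjamini-Hochberg over all tested genes with a threshold of 0.05. Differences within a pair are of log2 CPM (prior count 2). A standard error is the fitted difference over the square root of F. The dam pairing comes from the series design and the stems of the sample titles. Deviations from the group means correlated at 0.474, 0.621 and 0.413 within dams and at -0.454 to -0.00448 between dams. Such deviations cancel out within a group, so the signs within and between dams are not independent. Differences between libraries of a group exceeded counting noise. Alternatives were no replicate block, RLE and upper-quartile scaling, no filter, DESeq2 1.42.0, leaving out each pair and Mybl2 counted with S phase. The test between dams, the length classes and the removal of Ccnb2 were chosen after seeing the data. The fit was tested on simulated data. There it called 37 of 100 genes changed 2-fold, 85 of 100 changed 4-fold and 15 of 12076 unchanged genes. The 15 false calls were a larger share of all calls than the threshold of 0.05. The simulated counts used the dispersions of the fit itself and held many changed genes, where the data gave 2 calls. The shares found there can thus overstate what the test finds in these data.

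The members and lists were chosen with earlier results of these data known. By rule, every library's value was given for 23 set members, for those moving 1 way in all 3 pairs and for the 2 highest and 2 lowest of each class, and other pathway genes were named only at those extremes, of which 1 is not reported here. Promoter windows (RefSeq, GRCr8) were matched by symbol, and GRCr8 was not used for gene positions.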

Additional observations from a re-analysis of the deposited data

How the results depend on the processing

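The mitosis median of 0.26 and the S phase median of -0.078 kept their signs under every alternative run. With no replicate block they were 0.24 and -0.047, and with 1 pair left out 0.24 to 0.31 and -0.14 to -0.030. Relative to genes of the same exon length class (chosen after seeing the data) they were 0.22 and -0.090. Without Ccnb2, also chosen then, the mitosis median was 0.26. No member passed under any of the 8 settings (smallest adjusted p = 0.443, edgeR without pair 1, for Cenpf). The count of all genes called was 2, and it was 0 with no replicate block, 4 with upper-quartile scaling, 18 with no filter, 106 with DESeq2 and 18 to 55 without 1 pair. The count of members called between dams was 20, against 22.8% of all genes, and it was 31 with DESeq2's likelihood ratio test, against 33.4%. Without 1 pair the count was 0 to 27, and the share of all genes ranged from 1.74% to 31.5%. In 291 of 312 single-member values the sign held. It turned for Rrm2 with no replicate block (0.077), with RLE scaling (1.7e-05) and with DESeq2 (6.8e-05), and for Cdt1 with upper-quartile scaling (-0.0039). Without 1 pair it turned for 10 S phase genes, Ccne1 (-0.023 to 0.47), Ccne2 (-0.071 to 0.30), Rrm1 (-0.36 to 0.12), Rrm2 (-0.18 to 0.25), Mcm3 (-0.14 to 0.052), Mcm6 (-0.33 to 0.028), Mcm7 (-0.052 to 0.13), Pcna (-0.38 to 0.070), Tyms (-0.14 to 0.020) and Cdt1 (-0.11 to 0.22). It also turned for 5 mitosis genes, Mki67 (-0.060 to 0.89), Ccna2 (-0.030 to 0.31), Aurka (-0.00050 to 0.090), Plk1 (-0.014 to 0.34) and Mybl2 (-0.031 to 0.29). The cause was not tested. With 3 pairs, differences under the interval half-widths given above could not be shown. Larger ones need not pass either, since the intervals are not adjusted for the number of genes. The intervals of Kif23 and Cenpf lay above 0, and the adjusted p of both was 0.993 in edgeR's test.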
